A study of Mus musculus with 24 samples.

Results

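Expression of the enzymes that write and erase histone and DNA modifications was examined in tissue-resident macrophages (TRMs) of the mouse and in cultures grown from the same organs. The members are the protein-coding genes whose symbols begin with Kmt, Setd, Smyd, Ehmt, Suv39h, Dot1l, Kdm, Hdac, Kat or Dnmt (with a number where the family is numbered) or are Nsd1 to Nsd3, Ezh1, Ezh2, Sirt1 to Sirt7 or Tet1 to Tet3. The rule used symbols and no measured value. It gave 85 of the 45706 genes in the table, of which 33 belonged to families of lysine methyltransferases (some with other substrates or no established activity on histones), 8 acetyltransferases, 18 demethylases, 11 classical deacetylases, 7 sirtuins and 8 enzymes of DNA methylation. There were 8 groups of 3 libraries, all from female C57BL/6J mice of 8 to 12 weeks with no named transgene. In 4 groups, microglia (MG), Kupffer cells (KCs), peritoneal macrophages (PMs) and alveolar macrophages (AMs) had been sorted by flow cytometry straight from tissue, here called ex vivo. The other 4 were MG-, KC-, PM- and AM-like cells (LCs) kept as in vitro cultures on a polyethylenimine coating. MG-LCs received M-CSF with IL-34, KC- and PM-LCs received M-CSF, and these 3 cultures were held in low oxygen with high glucose. AM-LCs received GM-CSF in atmospheric oxygen with low glucose, so that organ cannot be told apart from growth factor, oxygen and glucose in AM-LCs, nor from IL-34 in MG-LCs. KC- and PM-LCs shared these conditions and differed in organ. Several brains, lungs or peritoneal lavages were pooled per flask and livers were used singly. Sort gates rested on CD45 and CD11b, with F4/80 and TIM-4 for KCs, F4/80 and CD115 for PMs, and SiglecF for AMs.

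Histone lysine methyltransferases place methyl groups that mark active promoters and enhancers (the KMT2 and SET1 enzymes, on H3K4), transcribed bodies (SETD2 and the NSD family, on H3K36) or silenced chromatin (EZH1 and EZH2 of the Polycomb complex, and the SUV39H, SETDB and EHMT enzymes). KDM enzymes remove these groups, mostly as dioxygenases that need oxygen, iron and 2-oxoglutarate. KAT enzymes acetylate lysines, and HDACs and the NAD-dependent sirtuins deacetylate them, in part on proteins that are not histones. DNMT1 copies DNA methylation at replication, DNMT3A and DNMT3B set it anew, and the TET enzymes oxidise 5-methylcytosine on the way to its removal. In macrophages, KMT2 enzymes and their partner acetyltransferases are known for the enhancers that tissue signals select.

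The libraries held 29569486 to 47105111 reads assigned to genes, and 79 to 82 members had reads in each. Expression is given as CPM, reads scaled to 1000000 per library, with TMM normalization over all 24 libraries, and 3 reads correspond to at most 0.115 CPM in any library. A group mean of at least 5 CPM was reached by 79 members. Dnmt3c, Kdm4d and the Y-linked Kdm5d were below 1 CPM in every group mean, and Kdm5d had at most 0.0382 CPM in any library. Of the members, 34 shared exonic bases with another gene, 9 of them over 10%. Counting was not stated to use strand, so reads of antisense partners cannot be separated. All 12 pan-macrophage markers had reads in all 8 groups. Tissue markers were lower in culture, with a summed level of 37908 to 41887 CPM in MG against 1551 to 3866 CPM in MG-LCs. Summed fibroblast and mesothelium markers, 10 genes, were 31157, 7.49 and 1019 CPM in MG-LCs 1 to 3, 23.003, 2219.7 and 368 CPM in PM-LCs and 17.4, 182 and 1693 CPM in AM-LCs, against at most 1.45 CPM in sorted MG, 12.8 CPM in PMs and 0.717 CPM in AMs, with MG-LC 1, PM-LC 2 and AM-LC 3 the highest of their groups. Sorted KCs held markers of other liver cells, among them monocyte and dendritic cell markers at 190.4 to 855 CPM, with KC 1 the highest. Hypoxia targets, 11 genes of which P4ha2 had no read in AMs, summed to 164 to 632 CPM ex vivo and 567 to 3115 CPM in vitro. Wherever a level below differs, fewer cells of a type and less RNA per cell cannot be told apart.

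The DNA upstream of the transcription starts is shown for some of the enzymes described below, picked after their values were seen. RefSeq windows (GRCm38.p6) were found for 68 of the 85 members, 96 windows in all, and the 250 bases before each start were read on the strand of the gene. The capitals mark matches, on either strand, to the GC box (GGGCGG), the CCAAT box (CCAAT) or the core of the hypoxia response element (ACGTG). Smyd2 was the member called higher in all 4 cultures. Dnmt3a, with the first and last of its 3 windows here, was far higher in cultures of PMs and AMs, and Kmt2d, Kmt2a, Tet2 and Tet3 were higher in sorted cells.
Smyd2, chr1:189922292-189922541, minus strand: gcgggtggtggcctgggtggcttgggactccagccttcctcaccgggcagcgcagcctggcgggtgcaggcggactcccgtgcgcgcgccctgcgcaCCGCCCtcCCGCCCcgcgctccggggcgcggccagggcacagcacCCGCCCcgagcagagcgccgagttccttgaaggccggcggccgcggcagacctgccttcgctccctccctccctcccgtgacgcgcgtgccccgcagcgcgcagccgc
Dnmt3a, first start, chr12:3806730-3806979, plus strand: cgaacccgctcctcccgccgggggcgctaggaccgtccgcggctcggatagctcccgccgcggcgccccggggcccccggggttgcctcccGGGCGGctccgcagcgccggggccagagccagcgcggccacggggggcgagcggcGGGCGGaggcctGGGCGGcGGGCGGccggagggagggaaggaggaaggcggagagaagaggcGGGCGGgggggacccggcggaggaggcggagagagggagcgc
Dnmt3a, last start, chr12:3891494-3891743, plus strand: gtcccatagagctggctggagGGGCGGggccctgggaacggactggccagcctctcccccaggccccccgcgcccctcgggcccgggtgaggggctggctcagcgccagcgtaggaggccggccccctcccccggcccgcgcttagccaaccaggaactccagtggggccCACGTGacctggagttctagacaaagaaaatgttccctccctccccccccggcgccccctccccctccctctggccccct
Kmt2d, chr15:98871206-98871455, minus strand: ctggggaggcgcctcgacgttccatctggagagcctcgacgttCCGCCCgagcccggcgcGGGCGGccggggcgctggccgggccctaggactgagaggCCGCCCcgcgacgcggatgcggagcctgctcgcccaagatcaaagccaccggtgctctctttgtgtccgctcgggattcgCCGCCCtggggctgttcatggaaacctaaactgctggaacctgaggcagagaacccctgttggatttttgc
Kmt2a, chr9:44881290-44881539, minus strand: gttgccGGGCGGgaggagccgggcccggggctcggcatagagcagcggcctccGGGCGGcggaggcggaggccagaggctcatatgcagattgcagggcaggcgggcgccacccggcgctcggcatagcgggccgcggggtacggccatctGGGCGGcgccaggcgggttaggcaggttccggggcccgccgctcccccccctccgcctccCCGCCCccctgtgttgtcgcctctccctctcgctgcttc
Tet2, chr3:133544391-133544640, minus strand: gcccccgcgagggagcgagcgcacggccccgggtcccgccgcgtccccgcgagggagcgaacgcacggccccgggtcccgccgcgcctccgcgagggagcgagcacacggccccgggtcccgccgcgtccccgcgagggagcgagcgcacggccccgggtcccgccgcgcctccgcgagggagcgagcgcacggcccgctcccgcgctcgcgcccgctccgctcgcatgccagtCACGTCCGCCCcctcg
Tet3, chr6:83441679-83441928, minus strand: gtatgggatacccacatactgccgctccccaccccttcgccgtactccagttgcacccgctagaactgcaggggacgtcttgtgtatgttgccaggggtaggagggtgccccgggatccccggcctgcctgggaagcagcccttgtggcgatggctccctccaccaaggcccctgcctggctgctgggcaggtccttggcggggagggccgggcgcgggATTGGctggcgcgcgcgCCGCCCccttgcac
These windows are rich in CpG, with 34 CpG for Smyd2, 38 and 15 for the windows of Dnmt3a (its remaining window, which overlaps the first, held 40), 26 for Kmt2d, 29 for Kmt2a, 51 for Tet2 and 17 for Tet3. The median was 17 CpG over the 96 member windows and 6 over all 32851 RefSeq windows. A GC box was present in 62.5% of member windows and 32.7% of all windows, a CCAAT box in 39.6% and 33.8%, and the hypoxia core in 22.9% and 16.6%. Of the other motifs searched, the ETS motif (CCGGAAG) was in 10.4% and 6.91%, the cyclic AMP response element (TGACGTC) in 3.12% and 2.78%, the AP-1 site (TGACTCA) in 5.21% and 4.46% and the TATA box (TATAAA) in 4.17% and 12.4%. Members called higher ex vivo, defined below, and members called higher in vitro had GC boxes at near the same share, 61.3% of 31 windows and 65% of 20 windows. The CCAAT box was in 25.8% of the former and 40% of the latter, and the hypoxia core in 19.4% and 10%. A match is a description of letters, and none of these shares was tested.

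The first question was how far each sorted population differed from its own culture. For each gene the log2 fold change is ex vivo minus in vitro, so that positive values are higher in sorted cells, and a gene was called at a Benjamini-Hochberg adjusted p under 0.05 in edgeR's quasi-likelihood test over all genes. Calls and their absence are those of this test unless another is named. More members were called higher ex vivo than in vitro in every population. In MG, 25 of 80 tested members were called higher ex vivo (31.2%, against 21.2% of all 14416 genes tested) and 9 higher in MG-LCs (11.2%, against 25.2% of all genes). For KCs the counts were 22 of 79 ex vivo (27.8%, against 19.4% of all genes) and 3 in KC-LCs (3.8%, against 14.4%). PMs had 15 of 81 ex vivo (18.5%, against 12.1%) and 7 in PM-LCs (8.64%, against 16.8%). AMs had 31 of 81 ex vivo (38.3%, against 22.9%) and 5 in AM-LCs (6.17%, against 25.9%). The median member was higher ex vivo on the log2 scale, by 0.32 in AMs, 0.26 in PMs, 0.41 in KCs and 0.35 in MG, whereas the median of all genes was between −0.037 and 0.009. Of the 85 members, 56 were called in at least 1 population, 3 of them (Ehmt2, Sirt2 and Dnmt1) in opposite directions in different populations, and 29 in none. Such counts over populations, here and below, were not made for all genes and are not read as results about the members.

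**Figure D1:**
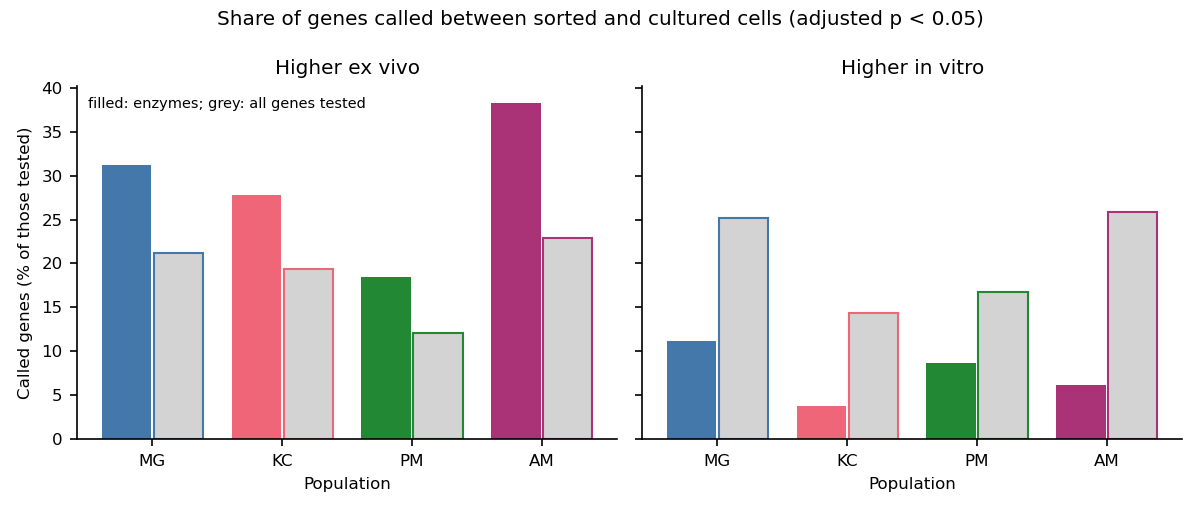
Percent of tested genes called higher ex vivo (one panel) and higher in vitro (the other), for the 85 enzymes and for all genes, in each of the 4 populations. The bars of the enzymes stand above those of all genes ex vivo (AM, 38.3% against 22.9%) and below them in vitro (AM, 6.17% against 25.9%).

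These counts moved when single libraries were left out. The shares of all genes called under such settings are not given. Counts under other settings, here and below, therefore do not show whether members moved apart from all genes. In MG 12 members were called ex vivo without MG 1, MG 2 or MG 3, and 5, 3 and 4 in vitro, while 15 were called in vitro without MG-LC 1, the culture with the most fibroblast RNA. In KCs 12 were called ex vivo without KC-LC 2, and 5 in vitro without KC 1. In PMs the ex vivo count was 6, 7 and 4 without PM 1, PM 2 and PM 3, 6 without PM-LC 1 and 25 without PM-LC 3, and the in vitro count was 4 without any 1 of the 3 PM libraries. In AMs the counts stayed between 22 and 30 ex vivo and between 4 and 6 in vitro. An offset for transcript length and GC content gave 15 and 5 members in KCs, 14 and 12 in PMs and 23 and 8 in AMs (ex vivo and in vitro).

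Averaged over the 4 populations in a fit of all 24 libraries, 37 of 83 tested members were higher ex vivo (44.6%, against 24.9% of all genes) and 11 higher in vitro (13.3%, against 31.6%). The median member was 0.35 higher ex vivo and the median of all genes −0.078. The summed CPM of all 85 members was 3644 to 3991 in MG against 2346 to 3169 in MG-LCs, 3524 to 3789 in KCs against 2701 to 2918 in KC-LCs, and 2983 to 3381 in AMs against 2458 to 2581 in AM-LCs. These ranges do not overlap, whereas 2790 to 2929 in PMs lay within 2656 to 3532 in PM-LCs. Enzymes of DNA methylation, Dnmt3a among them, made up 770 to 968 CPM of the PM-LC sums and 140 to 172 CPM of the PM sums. By class, 6 of 8 acetyltransferases, 9 of 17 demethylases, 13 of 33 methyltransferases, 4 of 11 deacetylases, 2 of 7 sirtuins and 3 of 7 DNA methylation enzymes were higher ex vivo in this mean, and 0, 0, 6, 1, 2 and 2 higher in vitro. The 0 for acetyltransferases and for demethylases came from edgeR, and was 0 also at an unadjusted p under 0.05, with DESeq2 and with limma-voom. Median log2 fold changes were 0.48 for acetyltransferases, 0.51 for demethylases, 0.29 for methyltransferases, 0.10 for deacetylases, 0.12 for sirtuins and 1.04 for DNA methylation enzymes. In what follows, values for single enzymes are this mean over populations unless a population is named, and per-library CPM are in the order of replicates 1 to 3.

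**Figure D2:**
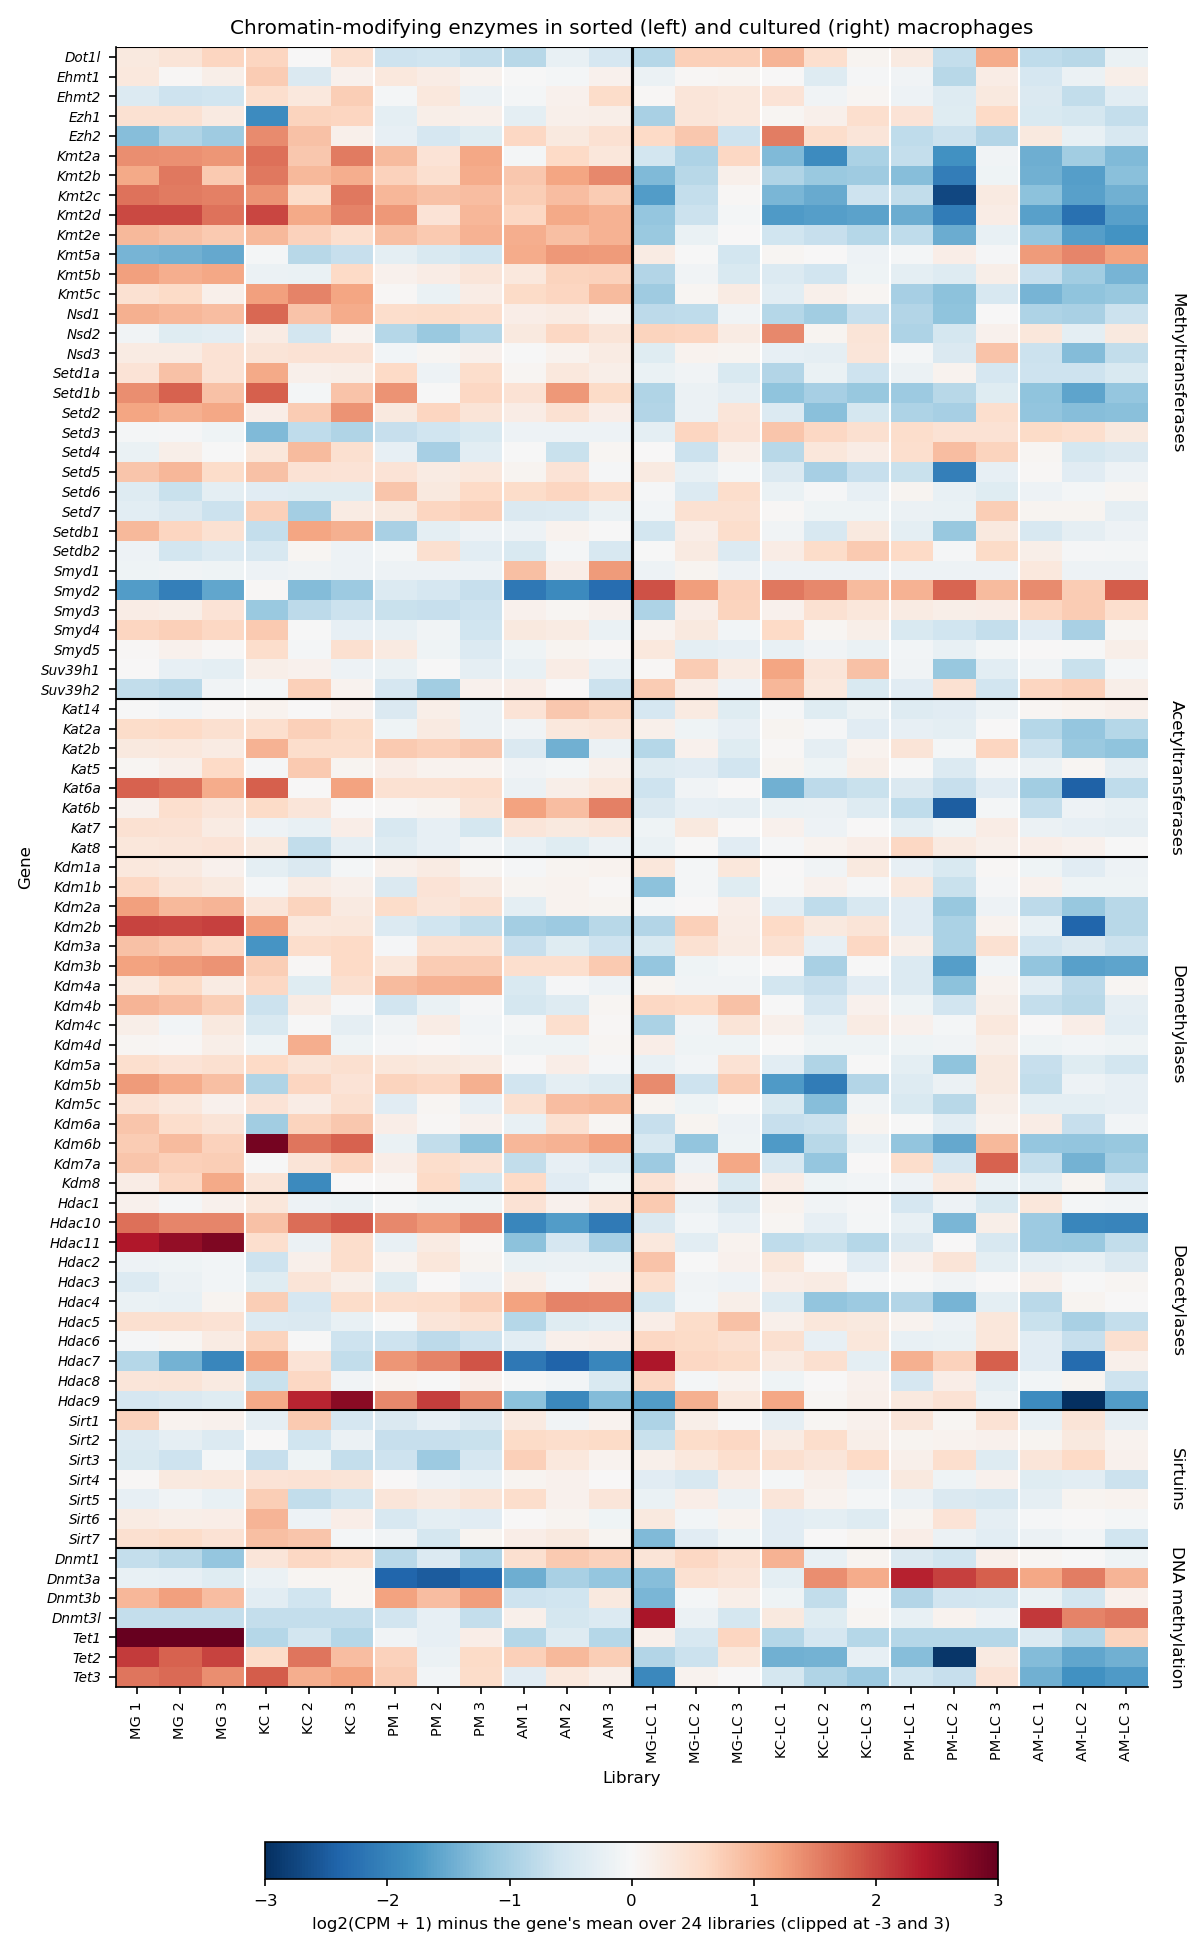
Level of 83 enzymes in the 24 libraries (columns, sorted on the left and cultured on the right), as log2(CPM + 1) minus the mean of the gene and limited to 3 either way. Dnmt3c and Kdm5d, under 1 CPM in every library, are left out. KMT2 enzymes are high in the sorted columns and low in the cultured ones and Smyd2 the other way round, while KC 1, PM-LC 2 and PM-LC 3 differ from the other libraries of their groups in several rows.

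Of the methyltransferase families, 15 of 33 tested members were called higher ex vivo in AMs (45.5%, against 22.9% of all genes), 10 of 32 in KCs and in MG (31.2% in both, against 19.4% and 21.2%) and 6 of 32 in PMs (18.8%, against 12.1%). Higher in vitro were 3 in AMs (9.09%, against 25.9%), 3 in KCs (9.38%, against 14.4%), 6 in MG (18.8%, against 25.2%) and 4 in PMs (12.5%, against 16.8%). The largest rises ex vivo in the mean were those of the H3K4 enzymes. Kmt2d (chr15:98831669-98871204, GRCm38, minus strand), which monomethylates H3K4 at enhancers, was at 170.4, 169 and 134 CPM in MG against 18.3, 26.7 and 40.8 CPM in MG-LCs and 172, 94.2 and 121 CPM in KCs against 12.3, 12.7 and 13.2 CPM in KC-LCs. PMs had 105, 56.4 and 85.03 CPM against 14.3, 9.18 and 49.3 CPM in PM-LCs, and AMs 65.7, 94.2 and 87.5 CPM against 12.9, 8.13 and 12.96 CPM in AM-LCs. Sorted and cultured libraries did not overlap in any of the 4 populations, although PM-LC 3 stood well above the other PM-LC libraries. The mean log2 fold change was 2.61 ± 0.23 (SE; edgeR adjusted p = 2.46e-08), with 3.38 in KCs as the largest and 1.75 in PMs, where the call was missed (adjusted p = 0.0745). Kmt2c, the paralogue that acts with Kmt2d, was at 98.5, 93.5 and 90.9 CPM in MG against 9.09, 18.8 and 32.1 CPM in MG-LCs and 81.2, 46.3 and 96.2 CPM in KCs against 11.5, 10.3 and 20.1 CPM in KC-LCs. PMs had 63.6, 58.5 and 60.1 CPM against 18.2, 3.84 and 37.8 CPM in PM-LCs, and AMs 52.6, 60.3 and 53.4 CPM against 12.9, 9.43 and 10.98 CPM in AM-LCs. Here too no sorted group overlapped its culture, the mean was 2.15 ± 0.27 (SE; edgeR adjusted p = 1.81e-06), and the call was missed in PMs (adjusted p = 0.122).

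Kmt2a, the founding MLL enzyme of promoters and Hox genes, was at 57.8, 56.6 and 54.8 CPM in MG against 14.4, 10.8 and 33.7 CPM in MG-LCs and 69.1, 38.3 and 65.2 CPM in KCs against 8.02, 5.06 and 10.6 CPM in KC-LCs. PMs had 42.4, 28.8 and 49.4 CPM against 12.8, 5.41 and 19.7 CPM in PM-LCs, and AMs 20.5, 32.7 and 27.4 CPM against 7.19, 9.85 and 7.897 CPM in AM-LCs. None of these pairs of groups overlapped, and the mean was 1.94 ± 0.22 (SE; edgeR adjusted p = 4.99e-07). For Kmt2b, its closest paralogue, the mean was 2.31 ± 0.24 (SE; edgeR adjusted p = 2.34e-07), and for Setd1b, an enzyme that trimethylates H3K4 at promoters, 2.24 ± 0.25 (SE; edgeR adjusted p = 3.44e-07). Setd1b was among the lower of these genes, at 24.1, 5.92 and 11.98 CPM in KCs and 2.11, 2.59 and 2.27 CPM in KC-LCs. Its paralogue Setd1a, which shares 52.3% of its exonic bases with 2 overlapping genes, had a mean of 1.04 ± 0.21 (SE; edgeR adjusted p = 0.000282) and was called in AMs alone, a call missed without AM 1, AM 2, AM 3, AM-LC 1 or AM-LC 2 (adjusted p up to 0.141). Kmt2e, a SET-domain protein of the same family for which H3K4 methylation is not established, was at 159.9, 149.6 and 141 CPM in MG against 36.7, 70.4 and 81.9 CPM in MG-LCs and 159.7, 131 and 116 CPM in KCs against 52.8, 50.04 and 44.7 CPM in KC-LCs. PMs had 151, 141 and 167 CPM against 47.1, 28.4 and 69.5 CPM in PM-LCs, and AMs 173, 152 and 167 CPM against 35.7, 25.01 and 22.5 CPM in AM-LCs. Groups did not overlap, the difference was largest in AMs, 2.56 ± 0.18 (SE; edgeR adjusted p = 0.000105), and the mean was 1.74 ± 0.14 (SE; edgeR adjusted p = 9.3e-09).

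Kmt2a, Kmt2e, Nsd1, Setd1b, Kat6a and Kdm2a were called higher ex vivo in all 4 populations, and Kmt2b, Kmt2c, Kmt2d, Kmt5c, Setd2, Kat2a, Kdm6b, Hdac10, Hdac4, Tet2 and Tet3 in 3. Several of these calls did not hold without 1 library or with another setting. Kmt2a, Kmt2b, Kmt2e and Setd2 lost the MG call without each of MG 1, MG 2 and MG 3 (adjusted p up to 0.101, 0.0958, 0.0747 and 0.0738), all but Kmt2e also without MG-LC 2, and Kmt2a also without MG-LC 1. In PMs, Kmt2a, Nsd1, Kdm2a and Kmt5c lost it without each PM library and without PM-LC 1 (up to 0.107, 0.125, 0.101 and 0.121), Kmt5c also without PM-LC 2, and Setd1b without PM 1, PM 3 or PM-LC 1 (up to 0.15). The PM call of Setd1b was also missed with limma-voom, a replicate block or offsets for length and GC content (up to 0.0813). In KCs, Setd1b lost it without KC-LC 1 or KC-LC 2 (up to 0.0513) and Setd2 without KC-LC 2 (0.0639). In AMs, 26 of 36 called members stayed called without each of the 6 libraries, among them those of Kmt2a, Kmt2b, Kmt2c, Kmt2d and Kmt2e. The mean over populations stayed called under every setting tried for Kmt2a, Kmt2b, Kmt2c, Kmt2d, Kmt2e, Setd1a and Setd1b.

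**Figure D3:**
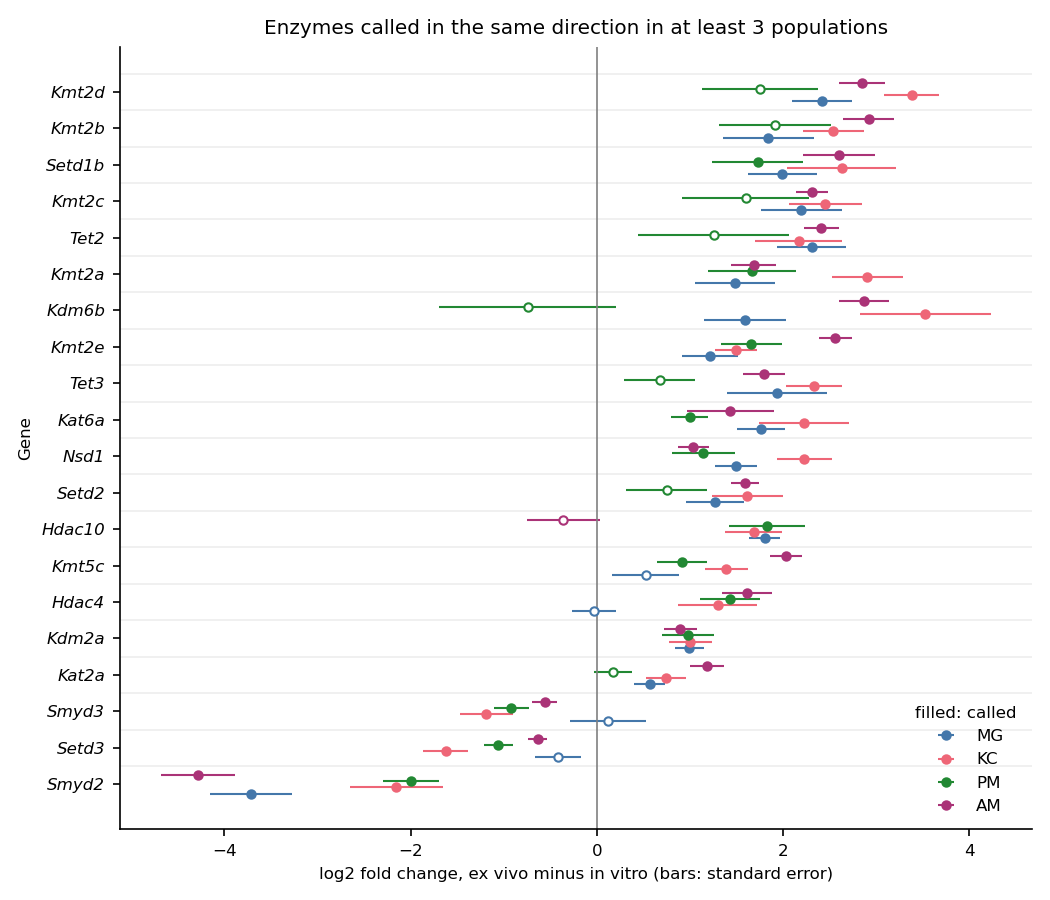
Log2 fold change, ex vivo minus in vitro, with its SE for the 20 members called the same way in at least 3 populations; 1 point per population, filled where called. Every point of Kmt2d, Kmt2b, Kmt2c and Setd1b lies on the ex vivo side and every point of Smyd2 on the in vitro side, while Kdm6b in PMs, Hdac10 in AMs and Hdac4 and Smyd3 in MG fall on the other side of 0 from their other populations, none of them called there.

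Enzymes of H3K36 methylation were split. Nsd1, which dimethylates H3K36, was at 89.5, 85.4 and 80.9 CPM in MG against 24.1, 24.5 and 39.2 CPM in MG-LCs and 142, 76.7 and 92.4 CPM in KCs against 22.7, 19.8 and 25.6 CPM in KC-LCs. PMs had 60.7, 62.6 and 60.1 CPM against 22.6, 17.6 and 42.5 CPM in PM-LCs, and AMs 48.6, 49.8 and 45.5 CPM against 21.7, 20.998 and 26.6 CPM in AM-LCs. Groups did not overlap in any population, and the mean was 1.48 ± 0.14 (SE; edgeR adjusted p = 4.08e-08). Setd2, which trimethylates H3K36 along transcribed genes, was at 37.4, 44.04 and 36.98 CPM in AMs against 13.6, 12.6 and 12.9 CPM in AM-LCs and had a mean of 1.31 ± 0.19 (SE; edgeR adjusted p = 9.48e-06). Nsd3 was also higher ex vivo, 0.40 ± 0.13 (SE; edgeR adjusted p = 0.0132), though at −0.041 with offsets for length and GC content, whereas Nsd2 was higher in vitro, −0.48 ± 0.16 (SE; edgeR adjusted p = 0.016), and was called in MG alone, a call missed without MG 1, MG 2 or MG 3 (up to 0.0751). Setd3, which methylates actin on histidine, was higher in vitro, at 64.3, 65.2 and 60.9 CPM in MG against 53.8, 105 and 88.2 CPM in MG-LCs and 25.8, 38.6 and 34.9 CPM in KCs against 119, 102 and 92.6 CPM in KC-LCs. PMs had 40.8, 43.5 and 48.1 CPM against 96.7, 90.1 and 89.4 CPM in PM-LCs, and AMs 59.6, 59.4 and 59.6 CPM against 98.9, 95.2 and 81.9 CPM in AM-LCs. The KC, PM and AM libraries did not overlap with their cultures, MG libraries lay within the range of MG-LCs, and the mean was −0.93 ± 0.10 (SE; edgeR adjusted p = 1.72e-07).

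Smyd2, a lysine methyltransferase of histones and of proteins such as p53, was called higher in vitro in all 4 populations, the one member to be so. It was at 2.07, 1.38 and 2.36 CPM in MG against 36.2, 22.6 and 14.9 CPM in MG-LCs and 9.08, 2.99 and 3.65 CPM in KCs against 28.3, 25.8 and 17.98 CPM in KC-LCs. PMs had 6.38, 5.92 and 5.07 CPM against 19.2, 32.2 and 18.1 CPM in PM-LCs, and AMs 1.23, 1.64 and 1.02 CPM against 25.3, 15.6 and 33.8 CPM in AM-LCs. Every cultured library exceeded every sorted library, from whichever organ. Within MG-, PM- and AM-LCs Smyd2 was highest in MG-LC 1, PM-LC 2 and AM-LC 3, the libraries with the most fibroblast RNA. Within KC-LCs it was highest in KC-LC 1, which had the least, 0.0240 CPM summed over the fibroblast and mesothelium markers. The mean over populations of Smyd2 stayed called without MG-LC 1, PM-LC 2 and AM-LC 3 together. That fit does not measure the part of fibroblast RNA in the Smyd2 levels, which was not tested. In vitro levels were 19.5-fold higher than ex vivo in AMs, a log2 fold change of −4.28 ± 0.40 (SE; edgeR adjusted p = 0.000266), and 13.1-fold higher in MG, −3.71 ± 0.44 (SE; edgeR adjusted p = 0.00225). They were 4.45-fold higher in KCs, −2.15 ± 0.50 (SE; edgeR adjusted p = 0.0143), and 3.996-fold higher in PMs, −2.00 ± 0.30 (SE; edgeR adjusted p = 0.00314). The KC call was missed without KC-LC 2 (adjusted p = 0.0532), and the other 3 held without each library. Of the exonic bases of Smyd2 (chr1:189880492-189922363, GRCm38, minus strand), 30% are shared with the opposite-strand gene Gm37422, which itself was at 0 to 1.60 CPM. Among the 4 cultures Smyd2 was not called different (edgeR adjusted p = 0.991), with group means of 24.6 ± 10.8 CPM in MG-LCs, 24.02 ± 5.37 CPM in KC-LCs, 23.2 ± 7.82 CPM in PM-LCs and 24.9 ± 9.11 CPM in AM-LCs (SD, n = 3). Smyd3, its relative, was higher in vitro by the mean, −0.63 ± 0.14 (SE; edgeR adjusted p = 0.000566), but MG at 23.5, 22.8 and 26.6 CPM overlapped MG-LCs at 9.94, 23.003 and 32.2 CPM. Smyd3 calls were lost in KCs without KC-LC 2 or KC-LC 3 (up to 0.0665), in PMs without each PM library (up to 0.061) and in AMs without AM 2 (0.0535).

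Of the H4K20 enzymes, Kmt5a, which monomethylates H4K20 in dividing cells, was higher in vitro in the mean, with a call in MG alone. Kmt5b and Kmt5c, which add the further methyl groups, were higher ex vivo in the mean, with calls in 2 and 3 populations. Kmt5a was at 32.3, 31.7 and 29.5 CPM in MG against 103, 86.3 and 58.98 CPM in MG-LCs and 83.6, 48.2 and 53.2 CPM in KCs against 91.2, 87.4 and 78.2 CPM in KC-LCs. PMs had 71.1, 63.4 and 57.6 CPM against 83.1, 101 and 84.7 CPM in PM-LCs, and AMs 189, 215 and 211 CPM against 212, 241 and 203 CPM in AM-LCs. AMs and AM-LCs both lay far above all other groups, MG lay below MG-LCs without overlap, and the mean was −0.61 ± 0.10 (SE; edgeR adjusted p = 3.71e-05). The MG difference of −1.46 ± 0.23 (SE; edgeR adjusted p = 0.00525) held without each library. Kmt5b was at 98.96, 88.98 and 94.4 CPM in MG against 22.01, 38.6 and 29.8 CPM in MG-LCs and had a mean of 1.04 ± 0.12 (SE; edgeR adjusted p = 1.07e-06). For Kmt5c the mean was 1.22 ± 0.14 (SE; edgeR adjusted p = 4.71e-07).

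Ezh1 and Ezh2, the alternative catalytic subunits of the Polycomb repressive complex that trimethylates H3K27, were each called in 1 population. The directions were opposite, and a difference between these genes was not tested. Neither was called in the mean (edgeR adjusted p = 0.562 for Ezh1 and 0.571 for Ezh2). Ezh2, the subunit of proliferating cells, was at 3.86, 5.28 and 4.63 CPM in MG against 16.97, 19.7 and 6.69 CPM in MG-LCs and 30.6, 20.7 and 12.04 CPM in KCs against 33.4, 15.9 and 14.1 CPM in KC-LCs. PMs had 9.02, 7.34 and 8.25 CPM against 6.01, 6.54 and 5.39 CPM in PM-LCs, and AMs 17.2, 13.4 and 15.3 CPM against 13.6, 9.05 and 7.502 CPM in AM-LCs. MG were the lowest of the sorted groups and were called lower than MG-LCs, −1.71 ± 0.45 (SE; edgeR adjusted p = 0.0238), a call that was missed without MG 1, MG 2, MG 3 or MG-LC 2 (adjusted p up to 0.103). The summed 16 proliferation markers, all with reads in every group, were at 427 to 1392 CPM in MG-LCs against 156 to 159.7 CPM in MG, and their part in this result was not tested. They were also higher in PM-LCs, 314 to 495 CPM against 258 to 286 CPM in PMs, where Ezh2 had 0.46 ± 0.29 (SE; edgeR adjusted p = 0.281). With offsets for length and GC content Ezh2 was called higher ex vivo in AMs, 0.78 (edgeR adjusted p = 0.03). Ezh1 was at 17.5, 108 and 106 CPM in KCs, where KC 1 stood far below the other 2, and was called higher ex vivo in AMs alone, 0.60 ± 0.15 (SE; edgeR adjusted p = 0.0155), which was missed without AM 2 or AM 3 (up to 0.066). KC 1 was also low for the H3K9 methyltransferase Setdb1, at 29.7, 114 and 104 CPM in KCs 1 to 3. Ehmt2, an H3K9 dimethyltransferase, was lower in MG than MG-LCs, −0.84 ± 0.16 (SE; edgeR adjusted p = 0.00791), and higher in AMs than AM-LCs, 0.70 ± 0.20 (SE; edgeR adjusted p = 0.0235). The MG call was missed without MG 2 (0.0515) and the AM call without AM 2, AM 3, AM-LC 1 or AM-LC 2 (up to 0.081). The heterochromatin enzymes Suv39h1, Suv39h2, Setdb1 and Ehmt1 were called in no population by edgeR (with all 24 libraries in the fit Suv39h1 passed in KCs, adjusted p = 0.0337), nor was Setdb2 (0.0396 in KCs so), though its mean over populations was higher in vitro, −0.47 ± 0.14 (SE; edgeR adjusted p = 0.00864). Dot1l, the H3K79 methyltransferase, was called by edgeR in none either, but with offsets for length and GC content it was higher in vitro in PMs, −1.29 (adjusted p = 0.0101), and in the mean, −0.56 (adjusted p = 0.00854).

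Acetyltransferases were the class with the largest share higher ex vivo in the mean. Of 8, 5 were called ex vivo in AMs (62.5%, against 22.9% of all genes), 4 in MG (50%, against 21.2%), 2 in KCs (25%, against 19.4%) and 1 in PMs (12.5%, against 12.1%), and in edgeR none in any culture (Kat8 in PM-LCs and in AM-LCs at an unadjusted p under 0.05 and with DESeq2). Kat6a, the MYST-family enzyme known as MOZ, was at 83.4, 76.2 and 52.4 CPM in MG against 15.1, 22.01 and 23.6 CPM in MG-LCs and 83.7, 23.9 and 56.1 CPM in KCs against 8.14, 13.3 and 14.5 CPM in KC-LCs. PMs had 32.7, 33.1 and 33.9 CPM against 17.1, 14.2 and 18.5 CPM in PM-LCs, and AMs 20.8, 27.01 and 29.6 CPM against 10.9, 3.59 and 13.6 CPM in AM-LCs. Sorted libraries exceeded the cultured libraries of their own population throughout, with a wide spread in KCs, and the mean was 1.61 ± 0.21 (SE; edgeR adjusted p = 2.49e-06). The AM call was missed without AM 1, AM 2, AM 3 or AM-LC 1 (adjusted p up to 0.11). Its paralogue Kat6b was 1.07 ± 0.26 (SE; edgeR adjusted p = 0.00154), with AMs at 18.2, 14.9 and 22.9 CPM against AM-LCs at 4.12, 6.57 and 6.17 CPM.

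Kat2a, the SAGA-complex enzyme GCN5, was at 69.1, 71.3 and 66.4 CPM in MG against 52.8, 42.7 and 39.4 CPM in MG-LCs and 67.3, 77.7 and 70.7 CPM in KCs against 49.6, 45.6 and 37.1 CPM in KC-LCs. PMs had 42.9, 56.98 and 41.5 CPM against 39.6, 38.6 and 47.2 CPM in PM-LCs, and AMs 43.9, 58.7 and 61.3 CPM against 25.6, 20.5 and 25.4 CPM in AM-LCs. PM libraries overlapped with PM-LCs and the other 3 populations did not overlap with their cultures, with a mean of 0.67 ± 0.087 (SE; edgeR adjusted p = 2.76e-06). MG and KC calls of Kat2a were each lost without any of 5 of the 6 libraries (all but MG-LC 1 and all but KC 1, adjusted p up to 0.132 and 0.128). Kat2b, the paralogue PCAF, was 0.59 ± 0.17 (SE; edgeR adjusted p = 0.00643) by the mean though called by edgeR in no single population (in KCs by DESeq2, adjusted p = 0.0235), and Kat5 and Kat14 were 0.36 ± 0.11 (SE; edgeR adjusted p = 0.00795) and 0.28 ± 0.10 (SE; edgeR adjusted p = 0.0161). Kat7, the most abundant member of the class per kilobase of transcript in MG (33.03 CPM per kb), and Kat8 were not called in the mean (adjusted p = 0.216 and 0.176). Kat8 was higher in MG than MG-LCs, 0.53 ± 0.17 (SE; edgeR adjusted p = 0.043), a call missed without MG 1, MG 2, MG 3 or MG-LC 3 (up to 0.149). In the other populations its log2 fold changes were −0.24, −0.61 and −0.38 in KCs, PMs and AMs, none of them called by edgeR, while DESeq2 called Kat8 higher in PM-LCs (adjusted p = 0.0343) and AM-LCs (adjusted p = 0.0222).

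All 17 demethylases tested in the mean had positive values, against a median of −0.078 over all genes, and 9 were called (52.9%, against 24.9% of all genes). The smallest value was that of Kdm4c, 0.010 ± 0.137 (SE), and Kdm4d was under 1 CPM in every group mean. With offsets for length and GC content the demethylases Kdm4b and Kdm7a were at −0.014 and −0.10. Of 16 tested in each population, 5 were called ex vivo in AMs and in MG (31.2% in both, against 22.9% and 21.2% of all genes), 4 in KCs (25%, against 19.4%) and 3 in PMs (18.8%, against 12.1%), and in edgeR none in any culture, also at an unadjusted p under 0.05, with DESeq2 and with limma-voom. Kdm2a, an H3K36 demethylase that binds CpG islands, was at 123, 103 and 107 CPM in MG against 49.8, 52.7 and 60.2 CPM in MG-LCs and 66.8, 83.1 and 62.4 CPM in KCs against 41.4, 30.4 and 36.8 CPM in KC-LCs. PMs had 76.97, 67.3 and 73.5 CPM against 40.9, 22.98 and 46.7 CPM in PM-LCs, and AMs 41.99, 55.9 and 55.4 CPM against 29.9, 23.1 and 28.7 CPM in AM-LCs. Its log2 fold changes ran from 0.90 in AMs to 1.00 in KCs, the test of a difference between populations gave an edgeR adjusted p of 1, and the mean was 0.97 ± 0.11 (SE; edgeR adjusted p = 3.45e-07). The KC call of Kdm2a was missed without KC-LC 2 or KC-LC 3 (up to 0.0677). Kdm3b, which removes H3K9 methylation, was 1.46 ± 0.18 (SE; edgeR adjusted p = 1.63e-06), and 24.6% of its exonic bases lie in another gene, Gm26538, at 0 to 3.17 CPM.

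Kdm6b, the H3K27 demethylase induced by inflammatory signals, was at 8.24, 9.58 and 7.81 CPM in MG against 2.88, 1.39 and 3.94 CPM in MG-LCs and 39.03, 15.5 and 17.4 CPM in KCs against 0.672, 2.07 and 3.66 CPM in KC-LCs. PMs had 3.71, 2.24 and 1.302 CPM against 1.39, 0.891 and 9.697 CPM in PM-LCs, and AMs 9.92, 10.3 and 11.7 CPM against 1.44, 1.41 and 1.47 CPM in AM-LCs. KC 1 held the highest value, and PM-LC 3 exceeded all 3 PM libraries. It was 11.5-fold higher ex vivo in KCs, 3.53 ± 0.70 (SE; edgeR adjusted p = 0.00823), and 7.31-fold in AMs, 2.87 ± 0.27 (SE; edgeR adjusted p = 0.00027), whereas PMs had −0.74 ± 0.95 (SE; edgeR adjusted p = 0.594). The MG call was missed without MG 1, MG 2 or MG 3 (adjusted p up to 0.116), and the mean was 1.82 ± 0.36 (SE; edgeR adjusted p = 0.000285). Monocyte and dendritic cell markers were also highest in KC 1, 855, 190.4 and 210.2 CPM in KCs 1 to 3, and their part in the KC value was not tested. Its X-linked relative Kdm6a was 0.51 ± 0.18 (SE; edgeR adjusted p = 0.0225), missed without KC 3 (0.0514).

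Kdm2b, the CpG-island protein of a variant Polycomb complex, was at 62.5, 60.7 and 62.8 CPM in MG against 7.47, 24.3 and 16.9 CPM in MG-LCs, 1.89 ± 0.41 (SE; edgeR adjusted p = 0.0129), and was called in no other population. That call was missed without MG 1, MG 2 or MG 3 (up to 0.054). Of the H3K4 demethylases, Kdm5a was 0.61 ± 0.14 (SE; edgeR adjusted p = 0.000943) and Kdm5c 0.62 ± 0.13 (SE; edgeR adjusted p = 0.000383), whereas Kdm1a, also known as LSD1, was not called (0.081, adjusted p = 0.43). Kdm5b was 0.74 ± 0.22 (SE; edgeR adjusted p = 0.00688). Its PM call was missed without PM 1, PM 2, PM 3, PM-LC 1 or PM-LC 2 (up to 0.128) and its KC call without KC 2, KC 3, KC-LC 1 or KC-LC 2 (up to 0.118), where KC 1 lay inside the range of the cultures. Kdm5a fell short in the mean with offsets for length and GC content (0.0739). Kdm3a, a hypoxia-inducible H3K9 demethylase, was not called in any population, and KC 1 stood apart from the other KC libraries there too, with 13.9, 71.98 and 76.2 CPM.

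The deacetylases did not move in one direction. Hdac1, Hdac2, Hdac3 and Hdac8, the class I enzymes of the corepressor complexes, were called by edgeR in no population (Hdac2 was higher in AMs with offsets for length and GC content, adjusted p = 0.0467), with means of 0.11, −0.061, −0.12 and 0.10 (edgeR adjusted p = 0.302 to 0.765). Hdac10, a polyamine deacetylase of class II, was at 56.1, 49.3 and 49.4 CPM in MG against 12.5, 16.2 and 14.4 CPM in MG-LCs and 32.6, 56.98 and 64.3 CPM in KCs against 18.1, 14.4 and 16.6 CPM in KC-LCs. PMs had 48.6, 44.1 and 51.05 CPM against 14.6, 6.11 and 19.5 CPM in PM-LCs, and AMs 3.71, 4.76 and 3.21 CPM against 7.58, 3.74 and 3.66 CPM in AM-LCs. It was higher ex vivo without overlap in MG, KCs and PMs and was low both in AMs and in AM-LCs. The log2 fold changes were 1.80 ± 0.17 (SE; edgeR adjusted p = 0.00117), 1.68 ± 0.31 (SE; edgeR adjusted p = 0.00614) and 1.83 ± 0.41 (SE; edgeR adjusted p = 0.0145), against −0.36 ± 0.39 (SE; edgeR adjusted p = 0.483) in AMs. The PM call was missed without PM 3 (0.0511).

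Hdac11, the class IV enzyme, was a gene of sorted MG, at 11.3, 13.7 and 15.4 CPM against 1.93, 0.871 and 1.51 CPM in MG-LCs, and at most 2.40 CPM in any library of the other organs. The MG difference was 3.18 ± 0.40 (SE; edgeR adjusted p = 0.00252), and the KC difference of 2.35 ± 0.75 (SE; edgeR adjusted p = 0.0444) was missed without any 1 of the 6 libraries (up to 0.166). Among the class IIa enzymes, which shuttle between nucleus and cytoplasm and bind MEF2 factors, Hdac4 was higher ex vivo, 1.08 ± 0.17 (SE; edgeR adjusted p = 2.75e-05), and Hdac7 higher in vitro, −1.68 ± 0.50 (SE; edgeR adjusted p = 0.00805). Hdac4 was at 56.1, 68.2 and 67.1 CPM in AMs and 12.97, 24.97 and 23.9 CPM in AM-LCs. In KCs its call was missed without any library but KC 2 (up to 0.158), and in PMs without PM 2, PM 3 or PM-LC 1 (up to 0.0548). Hdac7, a gene also of endothelial and lymphoid cells, was at 1.96, 1.001 and 0.382 CPM in MG and 27.8, 7.14 and 6.92 CPM in MG-LCs, where MG-LC 1, with the most fibroblast RNA, was the highest. The MG difference, −3.70 ± 0.88 (SE; edgeR adjusted p = 0.0171), was missed without MG 2 or MG 3 (up to 0.0821). Hdac7 was called in MG alone, and its fitted values in KCs and PMs were positive. The difference depended on the population (edgeR interaction, adjusted p = 0.0265). AMs held 7, 0 and 15 reads of Hdac7 and AM-LCs 99, 2 and 137, with the most in AM-LC 3. With offsets for length and GC content Hdac7 was also called higher in AM-LCs (edgeR adjusted p = 0.049).

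Hdac9 was at 13.8, 14.7 and 15.3 CPM in MG against 5.57, 43.2 and 25.3 CPM in MG-LCs and 45.3, 101 and 137 CPM in KCs against 46.4, 20.8 and 22.5 CPM in KC-LCs. PMs had 56.4, 87.97 and 55.6 CPM against 25.01, 27.5 and 17.7 CPM in PM-LCs, and AMs 8.04, 4.501 and 7.61 CPM against 4.704, 1.03 and 5.56 CPM in AM-LCs. It was high in sorted KCs and PMs and low in both alveolar groups, and was called higher ex vivo in KCs, 1.70 ± 0.47 (SE; edgeR adjusted p = 0.0281), and PMs, 1.51 ± 0.27 (SE; edgeR adjusted p = 0.0059). KC 1 lay within the range of KC-LCs, and the KC call was missed without KC 2, KC 3, KC-LC 2 or KC-LC 3 (up to 0.116). Its mean over populations, 0.81 ± 0.29 (SE; edgeR adjusted p = 0.0239), was missed without KC 3 (0.0509).

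**Figure D4:**
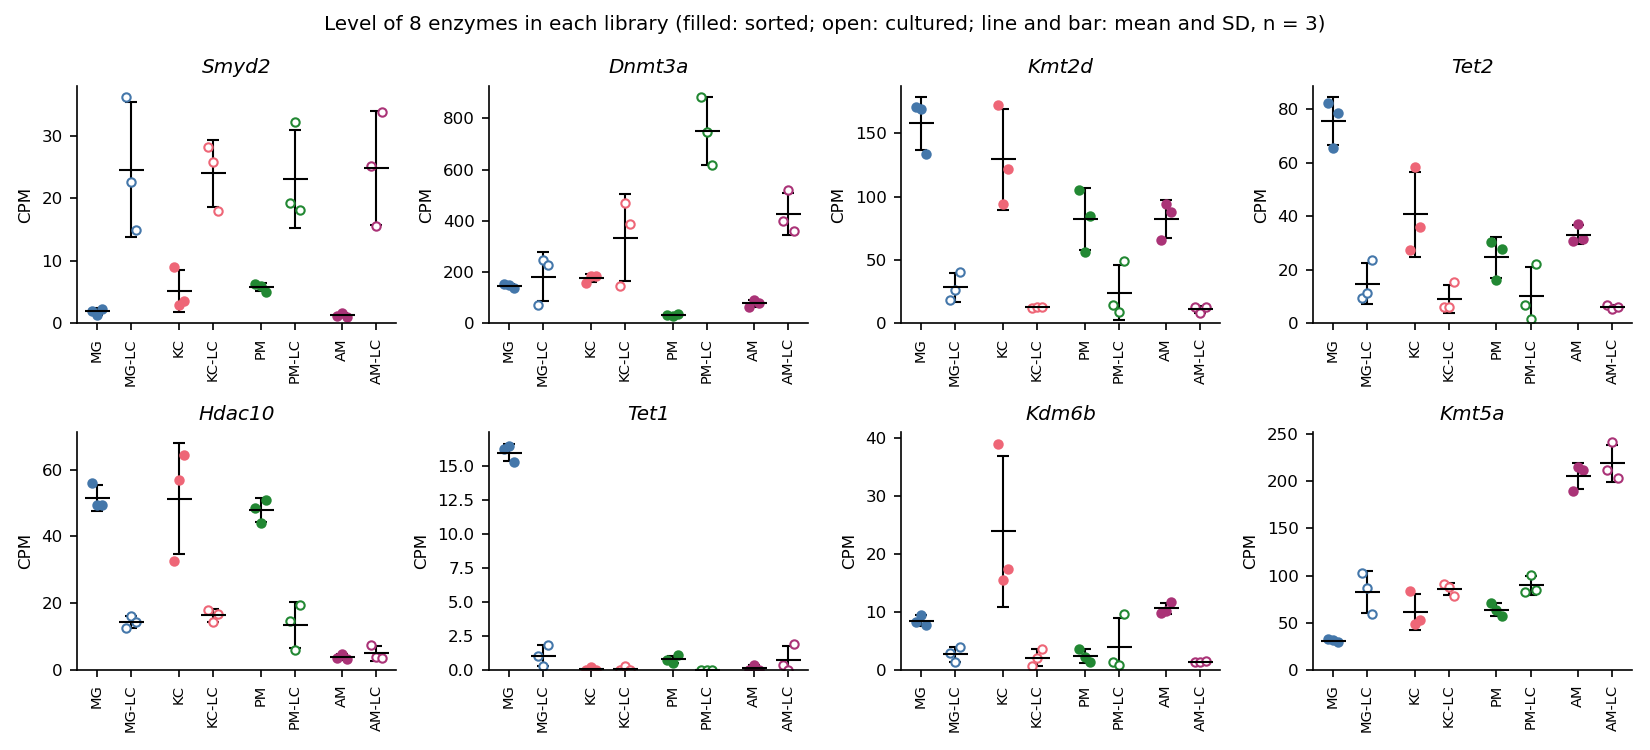
CPM in each library of Smyd2, Dnmt3a, Kmt2d, Tet2, Hdac10, Tet1, Kdm6b and Kmt5a; filled points are sorted and open points cultured libraries, with the mean and SD of n = 3. Smyd2 separates sorted from cultured libraries in every organ, Dnmt3a does so in PMs and AMs and not in MG or KCs, and Hdac10 is low in both alveolar groups.

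Sirt2, the mainly cytoplasmic tubulin and histone deacetylase, had the highest level per kilobase of transcript of all members in each sorted group, from 40.97 CPM per kb in PMs to 97.9 CPM per kb in AMs. Sirt2 was at 105, 117 and 105 CPM in MG against 88.3, 208 and 216 CPM in MG-LCs and 141, 92.1 and 124 CPM in KCs against 167, 204 and 158 CPM in KC-LCs. PMs had 86.7, 86.2 and 87.3 CPM against 149, 150.3 and 153 CPM in PM-LCs, and AMs 209, 204 and 209 CPM against 149, 172 and 151 CPM in AM-LCs. PMs lay below PM-LCs, −0.80 ± 0.14 (SE; edgeR adjusted p = 0.00613), and AMs above AM-LCs, 0.39 ± 0.10 (SE; edgeR adjusted p = 0.0181), without overlap in either population. The AM call was missed without AM 2, AM 3 or AM-LC 1 (up to 0.0618), and the mean was −0.40 ± 0.12 (SE; edgeR adjusted p = 0.00591). Sirt3, the mitochondrial deacetylase, was also higher in vitro by the mean, −0.69 ± 0.15 (SE; edgeR adjusted p = 0.000745), though called by edgeR in no single population, and 12.7% of its exonic bases lie in Psmd13 and Ric8a, both expressed. In MG DESeq2 and limma-voom called Sirt3 higher in vitro (adjusted p = 0.0107 and 0.0346), as they did in KCs (0.019 and 0.0405). Sirt7, the nucleolar enzyme, was higher ex vivo, 0.52 ± 0.14 (SE; edgeR adjusted p = 0.00343), with its MG call missed without MG 1, MG 2, MG 3 or MG-LC 2 (up to 0.123) and its AM call without any library but AM-LC 2 (up to 0.102). Sirt4, 0.30 ± 0.12 (SE; edgeR adjusted p = 0.0398), was missed without any 1 of 16 of the 24 libraries (up to 0.0772). Sirt1, the nuclear regulator of transcription factors, was called in PMs alone, −0.71 ± 0.22 (SE; edgeR adjusted p = 0.0498), which was missed without any library but PM-LC 2 (up to 0.162), and Sirt5 and Sirt6 in none (Sirt5 was higher ex vivo in PMs with DESeq2, adjusted p = 0.0136, and Sirt6 in KCs with all 24 libraries in the fit, 0.0252).

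Among enzymes of DNA methylation, the maintenance, de novo and TET enzymes differed in direction. Dnmt3a (chr12:3806007-3914443, GRCm38, plus strand) was at 153, 150.4 and 138 CPM in MG against 73.4, 246 and 229 CPM in MG-LCs and 159, 187 and 186 CPM in KCs against 146, 471 and 390.03 CPM in KC-LCs. PMs had 33.7, 30.96 and 35.2 CPM against 884, 748 and 619.9 CPM in PM-LCs, and AMs 63.9, 91.1 and 79.4 CPM against 399, 519 and 361 CPM in AM-LCs. PM-LCs exceeded all other groups and PMs were below all other groups, so that the in vitro level was 22.5-fold higher in PMs and 5.47-fold higher in AMs, while MG-LC 1 and KC-LC 1 lay below their sorted groups and the other 2 cultures of each above. The log2 fold changes were −4.49 ± 0.20 (SE; edgeR adjusted p = 2.81e-05) in PMs and −2.45 ± 0.19 (SE; edgeR adjusted p = 0.000142) in AMs, against −0.36 ± 0.44 (SE; edgeR adjusted p = 0.522) in MG and −0.89 ± 0.41 (SE; edgeR adjusted p = 0.132) in KCs. With offsets for length and GC content the KC value was −1.85 and was called (adjusted p = 0.0246). The difference between populations had an edgeR adjusted p of 2.92e-05. Per kilobase, Dnmt3a was the highest of the 85 members in PM-LCs, at 77.5 CPM per kb.

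Dnmt1 was at 43.8, 40.6 and 32.2 CPM in MG against 95.6, 113 and 100.2 CPM in MG-LCs and 93.4, 113 and 105 CPM in KCs against 150.4, 62.9 and 77.01 CPM in KC-LCs. PMs had 41.2, 54.7 and 37.7 CPM against 53.5, 48.2 and 80.9 CPM in PM-LCs, and AMs 103, 126 and 119 CPM against 76.5, 71.9 and 66.9 CPM in AM-LCs. MG lay below MG-LCs, −1.45 ± 0.17 (SE; edgeR adjusted p = 0.00229), and AMs above AM-LCs, 0.69 ± 0.12 (SE; edgeR adjusted p = 0.00314), both without overlap, and the difference between populations had an adjusted p of 0.00112. The 16 proliferation markers summed to 427 to 1392 CPM in MG-LCs against 156 to 159.7 CPM in MG, and to 402 to 746 CPM in AM-LCs against 795 to 843 CPM in AMs, with no overlap in either population and in the same direction as Dnmt1. They were also higher without overlap in PM-LCs, 314 to 495 CPM against 258 to 286 CPM in PMs, where Dnmt1 overlapped and had −0.46 ± 0.26 (SE; edgeR adjusted p = 0.238). KC-LCs held 875 to 2103 CPM and KCs 609 to 1059.9 CPM, with Dnmt1 at 0.14 ± 0.34 (SE; edgeR adjusted p = 0.775). Their part in the Dnmt1 values was not tested. With offsets for length and GC content Dnmt1 was called higher in vitro in PMs too, −0.60 (edgeR adjusted p = 0.0247). The mean was then −0.43 (edgeR adjusted p = 0.00218), and the AM call was missed (0.163).

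Dnmt3b, the other de novo enzyme, was at 6.82, 5.401 and 7.11 CPM in PMs against 0.83998, 1.26 and 1.32 CPM in PM-LCs, 2.49 ± 0.43 (SE; edgeR adjusted p = 0.00519), and had a mean of 1.04 ± 0.31 (SE; edgeR adjusted p = 0.00712). Dnmt3l, a cofactor without catalytic activity, was at 0.837, 0.153 and 0.249 CPM in AMs and 6.14, 3.67 and 3.91 CPM in AM-LCs, −3.48 ± 0.71 (SE; edgeR adjusted p = 0.00611). It had no read in the 3 MG and the 3 KC libraries. MG-LCs were at least 35.6-fold and KC-LCs at least 7.94-fold higher than a floor of 3 counts in the sorted library with the highest floor, the former through MG-LC 1, at 8.06, 0.473 and 0.143 CPM in MG-LCs 1 to 3. The fitted mean, −5.65 ± 0.85 (SE; edgeR adjusted p = 4.04e-05), rests on groups at 0 and is no measure of size. Dnmt3c, a germ-line enzyme, was at 0 in all MG, PM and cultured libraries and at most 0.519 CPM in the remaining KC and AM libraries, and was not tested.

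The 3 TET genes were higher ex vivo in the populations where they were called. Tet2 was at 82.3, 65.3 and 78.5 CPM in MG against 9.58, 11.3 and 23.5 CPM in MG-LCs and 27.6, 58.4 and 36.04 CPM in KCs against 6.12, 6.23 and 15.3 CPM in KC-LCs. PMs had 30.5, 16.1 and 27.6 CPM against 7.01, 1.57 and 22.3 CPM in PM-LCs, and AMs 30.8, 37.2 and 31.4 CPM against 6.93, 5.54 and 6.102 CPM in AM-LCs. Sorted and cultured libraries did not overlap in MG, KCs and AMs, and PM-LC 3 lay among the PM libraries. Its mean was 2.04 ± 0.30 (SE; edgeR adjusted p = 1.38e-05), and the KC call was missed without KC-LC 2 (0.0559). Tet3 was at 106, 113 and 90.4 CPM in MG against 8.09, 36.6 and 34.03 CPM in MG-LCs and 122, 73.2 and 79.95 CPM in KCs against 23.2, 17.7 and 15.3 CPM in KC-LCs. PMs had 58.8, 32.02 and 50.5 CPM against 22.1, 20.6 and 45.5 CPM in PM-LCs, and AMs 26.6, 42.7 and 38.1 CPM against 11.9, 8.97 and 9.84 CPM in AM-LCs. Its mean was 1.69 ± 0.21 (SE; edgeR adjusted p = 1.76e-06), the difference in PMs was 0.68 ± 0.38 (SE; edgeR adjusted p = 0.227), and the MG call was missed without MG 1, MG 2 or MG 3 (up to 0.0911). Tet1 was a gene of sorted MG, at 16.2, 16.5 and 15.3 CPM in MG against 1.03, 0.299 and 1.83 CPM in MG-LCs, and 14.7-fold higher there by the fit, 3.88 ± 0.66 (SE; edgeR adjusted p = 0.00607). In PMs it was at 0.702, 0.546 and 1.08 CPM with no read in any PM-LC library, at least 8.02-fold above the same floor, a call missed without PM 1 or PM 3 (adjusted p up to 0.0568). KC libraries held at most 0.274 CPM in either state and AM libraries at most 1.90 CPM.

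The sorted populations were next compared with each other. Of 81 members tested, 52 differed among MG, KCs, PMs and AMs (64.2%, against 70.9% of all 15732 genes tested), among them all 6 DNA methylation enzymes, 6 of 8 acetyltransferases, 11 of 16 demethylases, 20 of 33 methyltransferases, 6 of 11 deacetylases and 3 of 7 sirtuins. The smallest adjusted p belonged to Dnmt3a (4.19e-07), with PMs at 33.3 ± 2.13 CPM, AMs at 78.1 ± 13.6 CPM, MG at 147 ± 8.003 CPM and KCs at 177 ± 15.7 CPM (SD, n = 3). No 2 of these groups overlapped, KC 1 at 159 CPM and MG 1 at 153 CPM being the nearest libraries of different groups. Hdac10 (adjusted p = 1.12e-06) was low in AMs, 3.89 ± 0.791 CPM against 51.6 ± 3.92 CPM in MG, and Kmt5a (adjusted p = 1.18e-06) was highest in AMs, 205 ± 14.1 CPM against 31.2 ± 1.45 CPM in MG. Kdm2b (adjusted p = 1.76e-06) was highest in MG, 61.99 ± 1.095 CPM against 6.88 ± 0.769 CPM in AMs, and in KCs it was at 35.3, 18.3 and 18.6 CPM with KC 1 the highest. Hdac9 (adjusted p = 1.05e-05) was highest in KCs, 94.6 ± 46.4 CPM, and overlapped with PMs, 66.7 ± 18.4 CPM.

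Fewer members were called among the cultures than among the sorted groups, and all genes fell likewise, from 70.9% to 7.85%. Cultured replicates spread more than sorted ones in MG, PMs and AMs, so that a lower count does not show fewer tissue differences. Of 81 members, 3 differed among the 4 LC groups (3.7%, against 7.85% of all 14813 genes tested), namely Kmt5a (edgeR adjusted p = 0.00591), Hdac5 (0.0137) and the H3K9 and H3K36 demethylase Kdm4b (0.0403). That count was 14 with DESeq2, 17 with all 24 libraries in the fit and 5 with offsets for length and GC content. It was 7 without MG-LC 1, 5 without PM-LC 2 and 1 without AM-LC 1 or AM-LC 2. Shares of all genes under these settings are not given. Against the mean of the other 3 cultures, AM-LCs were higher in 1 member, Kmt5a (1.23%, against 8.38% of all genes), and lower in 5 (6.17%, against 4.71%). Kmt5a was 1.36 ± 0.16 (SE; edgeR adjusted p = 0.000776), from 212, 241 and 203 CPM in AM-LCs against 59.0 to 103 CPM in the other cultured libraries. The 5 lower members were Hdac5, −1.09 ± 0.17 (SE; edgeR adjusted p = 0.00316), Kat2a, −0.86 ± 0.17 (SE; edgeR adjusted p = 0.0106), Hdac10, −1.54 ± 0.37 (SE; edgeR adjusted p = 0.0224), Hdac9, −2.74 ± 0.69 (SE; edgeR adjusted p = 0.0264), and Kat2b, −1.09 ± 0.30 (SE; edgeR adjusted p = 0.0369). Hdac5, a class IIa deacetylase, was at 45.5, 36.5 and 43.5 CPM in AM-LCs against 64.5 to 133 CPM in the others. Kmt5a and Hdac5 held without each library, whereas Kat2a was missed without AM-LC 2 (0.0552), Hdac10 without AM-LC 2 or AM-LC 3 (up to 0.128), Hdac9 without any AM-LC library (up to 0.0941) and Kat2b without any 1 of 10 libraries (up to 0.175). The count of lower members was 11 without MG-LC 1, 10 without PM-LC 2, and 3, 1 and 3 without AM-LC 1, AM-LC 2 and AM-LC 3, and that of higher members 2 without MG-LC 1. Without MG-LC 1, PM-LC 2 and AM-LC 3 together, the libraries with the most fibroblast RNA, 14 were lower and 2 higher in AM-LCs. AM-LCs were thus the highest cultured group for Kmt5a and the lowest for Hdac10, as AMs were among sorted groups, and organ and culture conditions cannot be told apart here.

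Whether culture acted alike in the 4 organs was tested as an interaction. The ex vivo minus in vitro difference depended on the population for 26 of 83 members (31.3%, against 36.3% of all 17408 genes tested), 11 of 33 methyltransferases, 3 of 8 acetyltransferases, 2 of 17 demethylases, 4 of 11 deacetylases, 1 of 7 sirtuins and 5 of 7 DNA methylation enzymes. Dnmt3a, Dnmt1, Ehmt2, Hdac10 and Setd3 had the smallest adjusted p values, 2.92e-05, 0.00112, 0.00317, 0.00328 and 0.00482. The H3K4 enzymes Kmt2a, Kmt2b, Kmt2c, Kmt2d and Setd1b were not among them (adjusted p = 0.184 to 0.754), which does not show that they moved alike. The count was 17 without MG 1, MG 2, PM 2, PM 3 or PM-LC 1 and 16 without MG 3 or AM 3.

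Members with long transcripts had the larger differences. Their longest annotated transcripts had a median of 4.66 kb, and 29 of the 83 tested in the mean were in the top length decile of all genes (at least 6372 bases), with a median log2 fold change of 1.07 against 0.28 for all genes of that decile. The 9 members of the decile from 4115 to 4872 bases had a median of 0.17, against 0.007 for all its genes. Spearman's rho between length and the mean log2 fold change was 0.50 over the 83 members and 0.017 over 17331 genes, and from 0.41 to 0.53 in single populations against 0.057 to 0.18 over all genes. Beyond the shortest decile all genes too had higher medians at greater length, from −0.395 (959 to 1519 bases) to 0.28 in the top decile. The shortest decile (38 to 958 bases) had a median of 0.045 and no member, so that these rho values span unlike lengths. These are descriptions across genes that share libraries, and genes are not independent replicates. Measured against the median of its own length decile, the median member was 0.34 higher ex vivo and 63 of 83 lay above that median. With offsets for length and GC content the mean log2 fold change was 1.61 for Kmt2d, 1.17 for Kmt2a, 0.87 for Nsd1 and 0.62 for Kdm2a, all still called, and in KCs Kmt2d went from 3.38 to 1.11. Among the calls missed with these offsets were those of Kdm5b and Hdac9 in the mean (edgeR adjusted p = 0.159 and 0.145), Setd1b in PMs (0.0749) and KCs (0.0672), Kmt2a in MG (0.0894) and AMs (0.0508), Nsd1 in PMs (0.0503) and AMs (0.0623), Kat6a in KCs (0.059), PMs (0.164) and AMs (0.086), Kdm2a in KCs (0.258) and Dnmt1 in AMs (0.163). Smyd2, at 1.71 kb, kept a mean of −2.89. The part of transcript length in these differences was not tested beyond these offsets.

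**Figure D5:**
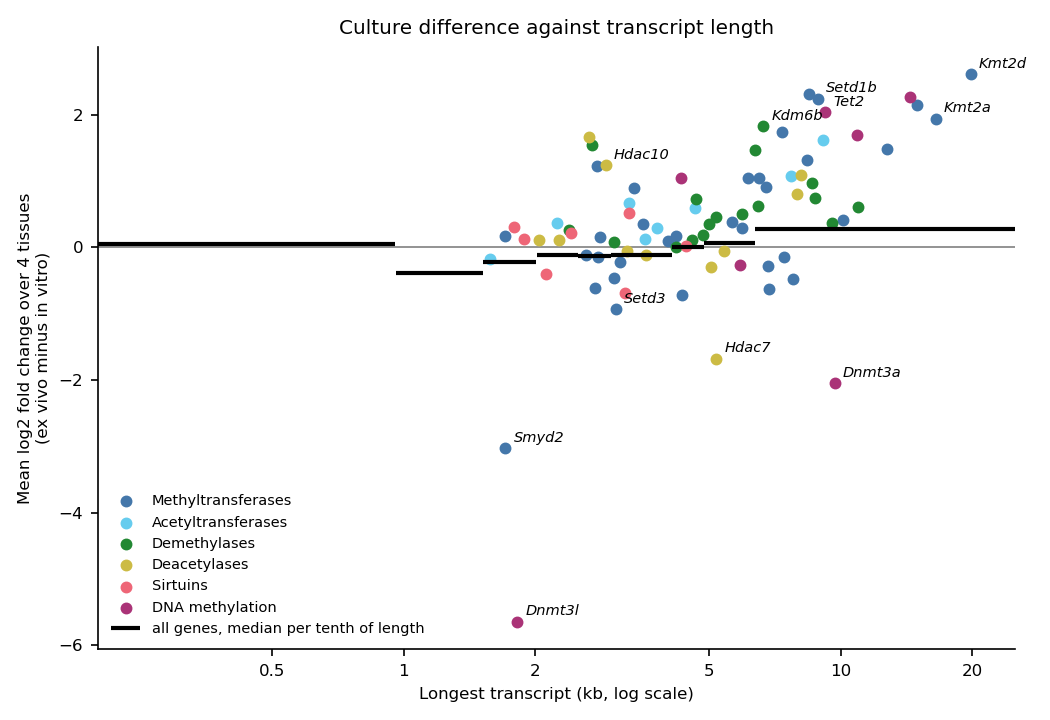
Mean log2 fold change over populations, ex vivo minus in vitro, of the 83 tested enzymes against the length of their longest transcript (kb, log axis); black lines are the median of all genes in each length decile. Members over about 6 kb, the KMT2 enzymes among them, lie mostly above the all-gene median of 0.28, and Smyd2 and Dnmt3a far below it.

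Partners of these enzymes were read from lists of genes outside the rule. Over all genes, 24.9% were higher ex vivo and 31.6% in vitro in the mean over populations. Readers of acetyl and methyl marks were higher ex vivo in 16 of 26 (61.5%) and in vitro in 3 (11.5%, median 0.48), with the bromodomain protein Brd8 at 0.83 ± 0.091 (SE; edgeR adjusted p = 3.33e-07). For other acetyltransferases the counts were 8 and 1 of 12 (66.7% and 8.33%, median 0.83), with Crebbp, a coactivator of enhancers, at 1.55 ± 0.17 (SE; edgeR adjusted p = 3.44e-07), and Naa60 at 0.83 ± 0.089 (SE; edgeR adjusted p = 2.5e-07). COMPASS subunits, the shared partners of the KMT2 enzymes, were 4 and 1 of 10 (40% and 10%, median 0.29), with Hcfc1 at 1.28 ± 0.15 (SE; edgeR adjusted p = 7.48e-07) and Cxxc1 at 0.46 ± 0.074 (SE; edgeR adjusted p = 3.47e-05). By population, 50% of COMPASS subunits were called ex vivo in AMs (against 22.9% of all genes). The share was near that of all genes in MG (20%, against 21.2%) and KCs (20%, against 19.4%). In PMs it was 0% (against 12.1%). Other dioxygenases and SET proteins of chromatin were 15 and 2 of 23 (65.2% and 8.7%, median 0.79), led by the H3K36 methyltransferase Ash1l, 1.66 ± 0.15 (SE; edgeR adjusted p = 2.38e-08), and the Polycomb cofactor Jarid2, 1.91 ± 0.20 (SE; edgeR adjusted p = 2.49e-07).

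The shares of the next 3 lists and of cofactor supply lay nearer to those of all genes and are not read as results about these lists. Polycomb subunits were 9 and 8 of 27 (33.3% and 29.6%, median −0.053), with Jarid2 on one side and the histone chaperone Rbbp4, −0.73 ± 0.081 (SE; edgeR adjusted p = 4.03e-07), on the other. Deacetylase corepressors were 9 and 6 of 23 (39.1% and 26.1%, median 0.12), with Gps2 at 1.16 ± 0.13 (SE; edgeR adjusted p = 5.08e-07) and Sap30 at −1.22 ± 0.14 (SE; edgeR adjusted p = 5.42e-07). Arginine methylation genes were 3 and 2 of 11 (27.3% and 18.2%, median −0.015), the smallest p values being those of Prmt2, −0.86 ± 0.084 (SE; edgeR adjusted p = 7.85e-08), and Prmt7, −0.59 ± 0.13 (SE; edgeR adjusted p = 0.000632). Among partners of DNA demethylation, 2 of 8 were higher ex vivo and 4 in vitro (25% and 50%, median −0.94), with Gadd45a at −3.45 ± 0.20 (SE; edgeR adjusted p = 5.93e-11) and Gadd45b at −3.42 ± 0.39 (SE; edgeR adjusted p = 5.34e-07). Gadd45a, a stress-response gene, had group means of 31.2 CPM in MG-LCs against 1.29 CPM in MG, and Gadd45b 1.25 CPM in PMs and 146 CPM in PM-LCs. Genes of cofactor supply were 6 and 8 of 22 (27.3% and 36.4%, median −0.34), with Nampt, which makes the NAD precursor that sirtuins need, at −1.45 ± 0.12 (SE; edgeR adjusted p = 1.09e-08), and Acly, which makes cytosolic acetyl-CoA, at 1.32 ± 0.17 (SE; edgeR adjusted p = 1.68e-06). As group means, Acly was at 1519.8 CPM in PMs and 190.1 CPM in PM-LCs.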

How the data were processed

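RNA-seq libraries were made by the authors with an oligo-dT SMARTer v4 and Nextera XT protocol, read as single ends and aligned to the mouse genome. The deposited values are raw counts of reads per gene for 24 libraries, with no normalization, and all columns belonged to a sample. Per the labels, processing used Trimmomatic 0.36 and STAR 2.5.2b, and the genome was taken as mm10 from the methods, since the notes name a human build while the identifiers are of mouse. Strand use in counting is not given in the sources used here. Symbols, coordinates and lengths came from GENCODE M21 (GRCm38). Analyses ran in R 4.3.3 with edgeR 4.0.16 (TMM, filterByExpr with a minimum count of 10, quasi-likelihood tests, two-sided, Benjamini-Hochberg over all genes tested), on 6 libraries per population, 12 per state or all 24. The SE is the absolute log2 fold change over the square root of F. DESeq2 1.42.0, limma-voom (limma 3.58.1), other size factors, filters, offsets for length and GC content, all libraries in the fit, a replicate block and left-out libraries were alternatives. Scripts were tested on simulated data. Members and lists were chosen with earlier results of these data known. Full statistics are given for the DNA methylation class, members called the same way in at least 3 populations or with an absolute log2 fold change above 1.5 in 1 (a group mean of at least 5 CPM), the 3 of each class with the smallest p among sorted and among cultured groups, Ezh1, Ezh2 and Kdm5d. Other members are named after their values were seen, and 1 gene outside the rule is not reported here. The series' text calls the libraries biological replicates. A permutation of 3 against 3 libraries cannot go below p = 0.1, so none was run. Floors of 3 counts cover counting error only.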

Additional observations from a re-analysis of the deposited data

Results flagged for a closer look

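Results are listed where the ex vivo minus in vitro difference itself differed between the 4 populations in edgeR's interaction test over all 24 libraries. These were 26 of 83 members (31.3%, against 36.3% of all 17408 genes tested), a share below that of all genes. Values are edgeR adjusted p for that test, and the log2 fold changes in MG, KCs, PMs and AMs are given for the enzymes whose signs differ most. Among methyltransferases they were 0.00317 for Ehmt2 (−0.84, 0.43, 0.093 and 0.70), 0.0125 for Ezh2 (−1.71, 0.035, 0.46 and 0.61), 0.00701 for Setd6 (−0.61, −0.18, 0.80 and 0.63) and 0.045 for Setd4 (0.088, 0.75, −1.46 and 0.13). They were 0.00482 for Setd3, 0.00704 for Kmt5a, 0.0074 for Kmt5b, 0.0109 for Smyd2, 0.0241 for Kmt5c, 0.0353 for Smyd3 and 0.0498 for Kmt2e. Smyd2, Setd3 and Kmt5a were higher in vitro, and Kmt2e, Kmt5b and Kmt5c higher ex vivo, by the fitted value in every population, so that for these enzymes the size and not the sign differed.

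Acetyltransferases with a difference were Kat7 (adjusted p = 0.0126; 0.27, −0.006, −0.37 and 0.56), Kat8 (0.019) and Kat2a (0.0204), and demethylases were Kdm6b (0.0141) and Kdm2b (0.0432). For deacetylases and sirtuins the values were 0.00328 for Hdac10, 0.0265 for Hdac7 (−3.70, 0.40, 0.35 and −3.84), 0.0373 for Hdac5, 0.0419 for Hdac4 and 0.0239 for Sirt2. For enzymes of DNA methylation they were 2.92e-05 for Dnmt3a, 0.00112 for Dnmt1, 0.0334 for Dnmt3l, 0.0435 for Tet1 and 0.0467 for Dnmt3b. Dnmt3l and Tet1 include groups without a read, so that their size is not measured. Explanations were not tested.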

How the results depend on the processing

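Of 8844 values of single members under alternatives, 8842 kept their direction or were called under neither setting, 345 fell short of the threshold they had passed and 221 passed it newly. The 2 exceptions in direction came with offsets for length and GC content, Hdac5 in AMs at 0.30 (adjusted p = 0.227) as reported and −0.39 (adjusted p = 0.0253) so, and Nsd3 in the mean at 0.40 (adjusted p = 0.0132) and −0.041 (adjusted p = 0.707). Of 303 alternative counts of called members, 243 were within 1.5 times of the reported one. No shares of all genes are given beside these alternative counts, which describe how stable the calls were. Requiring an absolute log2 fold change above 1.5 left 14 of 25 members ex vivo and 3 of 9 in vitro in MG, 7 of 15 and 2 of 7 in PMs, 15 of 31 and 3 of 5 in AMs, 11 of 37 and 4 of 11 in the mean over populations, and 0 higher and 2 lower members in AM-LCs. The 0 came from edgeR, with 2 members at an unadjusted p under 0.05, 0 with DESeq2 and 1 with limma-voom. Offsets for length and GC content gave 5 members higher in KC-LCs, 12 in PM-LCs, 8 in AM-LCs and 5 that differed among cultures. With all 24 libraries in the fit 8 were higher in KC-LCs, 17 differed among cultures and 15 were lower in AM-LCs, and DESeq2 gave 5, 14 and 15 for these. Limma-voom gave 2 members higher and 3 lower in AM-LCs, and without a filter on low counts 16 had an interaction. Without MG-LC 1, PM-LC 2 and AM-LC 3 together, an alternative chosen after seeing the data, 5 differed among cultures, 2 were higher and 14 lower in AM-LCs. When 1 library at a time was left out, counts ranged from 12 to 27 ex vivo and 3 to 15 in vitro in MG, 12 to 21 and 2 to 5 in KCs, 4 to 25 and 4 to 7 in PMs, 22 to 30 and 4 to 6 in AMs, 35 to 39 and 11 to 13 in the mean, 44 to 64 among sorted groups, 1 to 7 among cultures, 1 to 2 higher and 1 to 11 lower in AM-LCs, and 16 to 28 for the interaction. The causes were not tested. With a replicate block, 18 members were ex vivo and 6 in vitro in MG, 21 and 3 in KCs, 14 and 5 in PMs and 28 and 6 in AMs, 49 differed among sorted groups and 3 among cultures, 1 was higher and 7 lower in AM-LCs, 35 and 11 were called in the mean and 24 had an interaction, none beyond 1.5 times. Whether the numbers pair sorted and cultured samples is not stated in the sources used here. Deviations of same-numbered libraries from their group means correlated between −0.104 and 0.056, which cannot exclude a shared origin. With 3 libraries per group, differences near the spread of the cultures could not be called, and members under about 1 CPM rest on few reads.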
